A study of Mus musculus with 4 samples.

Results

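The p53 family consists of 3 genes in the mouse, Trp53, Trp63 and Trp73, and all of their transcripts were followed here through 4 libraries of mouse embryonic stem (ES) cells. The members were chosen by name: every row of the deposited tables whose RefSeq accession belongs to one of these genes was taken, which gave 13 of 30769 transcript rows and 3 of 22394 named genes. The rule itself uses no measured value, but it was set with earlier results of these data known. Trp53 has 2 rows, Trp63 has 8 and Trp73 has 3.

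The cells were p53-/- and given Adriamycin, p53-/- and untreated, p53+/+ and given Adriamycin, or p53+/+ and untreated. Adriamycin, also called doxorubicin, is a topoisomerase II poison that causes DNA breaks, and it was used at 0.5 uM for 8 h. All cells were of the C57BL/6X129Sv mix, were kept under 20 passages and grew in serum with leukemia inhibitory factor. Each group has 1 library of poly(A) RNA, so the differences below have no replicate check and no p-value. The sources used here give neither the deleted exons of the p53-/- allele nor the number of clones. In bulk RNA, fewer cells that express a gene and less RNA per cell cannot be told apart.

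The 3 proteins are transcription factors that bind closely related DNA sites through a conserved central domain. p53 responds to DNA damage with cell cycle arrest and apoptosis, p63 is required for stratified epithelia, and p73 is known for its roles in neurons and multiciliated cells. Trp63 and Trp73 are each transcribed from an upstream start, which gives proteins with the transactivation domain (TA), and from an internal start, which gives N-terminally shortened proteins (ΔN) that can oppose p53 and the TA forms. Alternative splicing at the other end varies the C-terminus of all 3.

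The libraries held between 3.34 and 4.32 gigabases of aligned sequence, estimated as coverage times length, and between 11422 and 12292 genes reached 1 FPKM (fragments per kilobase of transcript, scaled to the mapped fragments of the library). The cell type markers below were chosen after their values were seen. All 9 ES cell markers, among them Pou5f1, Nanog and Sox2, stood at 38.9 FPKM or more in every library. Their median difference with treatment was -0.22 in p53-/- and -0.90 in p53+/+ cells, where 2 of the 9 were lower by at least 1. These were Nanog, at 105 FPKM in treated and 310.01 FPKM in untreated p53+/+ cells, and Zfp42, at 84.7 FPKM in treated and 289 FPKM in untreated p53+/+ cells. Of 14 fibroblast markers, 13 reached 1 FPKM in each p53-/- library, with a sum of 417 FPKM in treated and 495 FPKM in untreated cells. In p53+/+ cells 5 and 3 of them did, with sums of 18.4 FPKM in treated and 11.04 FPKM in untreated cells, and Col3a1, Postn, Lum and Dcn were listed at 0 in both. The 5 trophoblast markers summed to 49.0 FPKM in treated and 55.9 FPKM in untreated p53-/- cells, against 20.8 FPKM in treated and 19.2 FPKM in untreated p53+/+ cells. Krt8 and Krt18 held most of each sum, at 15.1 and 29.2 FPKM in treated p53-/- cells. Cdx2 and Elf5 reached at most 0.202 and 0.412 FPKM in any library. The 6 primitive endoderm markers summed to 3.31 FPKM in treated and 2.55 FPKM in untreated p53-/- cells, against 19.4 FPKM in treated and 22.1 FPKM in untreated p53+/+ cells. Differences are between values of log2(FPKM + 1), so those of low genes are understated, and genes that differed by at least 1, a 2-fold step at high levels, are the ones called higher or lower. Bounds are the 95% bounds that the deposited tables give, and they cover counting and assignment error only. All 52 member values lay within their own bounds and all 13 rows had the status OK in every library. Of these values 29 were under 0.0001 FPKM. Over all 30769 rows, between 1525 and 2036 per library with the status OK stood above their own upper bound.

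Trp53 was the highest member in every library and Trp73 was the one that differed most with treatment in p53+/+ cells, though not in p53-/- cells. Summed over transcripts, Trp53 stood at 76.5 FPKM in treated and 78.6 FPKM in untreated p53-/- cells, against 165 FPKM in treated and 216 FPKM in untreated p53+/+ cells. Trp73 stood at 0.0672 FPKM in treated and 0.0848 FPKM in untreated p53-/- cells, against 46.01 FPKM in treated and 1.33 FPKM in untreated p53+/+ cells. Trp63 stayed under 1 FPKM throughout, at 0.329 FPKM in treated and 0.229 FPKM in untreated p53-/- cells, against 0.0247 FPKM in treated and 0.0478 FPKM in untreated p53+/+ cells. The order of the members by level was therefore Trp53, Trp73, Trp63 in p53+/+ cells and Trp53, Trp63, Trp73 in p53-/- cells. In p53-/- cells the bounds of the highest Trp63 and Trp73 transcripts overlap, so their order there is not set apart by the counting error. In p53+/+ cells the bounds of the highest transcripts of neighbouring members do not overlap. The lower Trp53 transcript (43.6 to 50.07 FPKM) and the highest Trp73 transcript (44.3 to 47.4 FPKM) do overlap in treated p53+/+ cells.

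**Figure D1:**
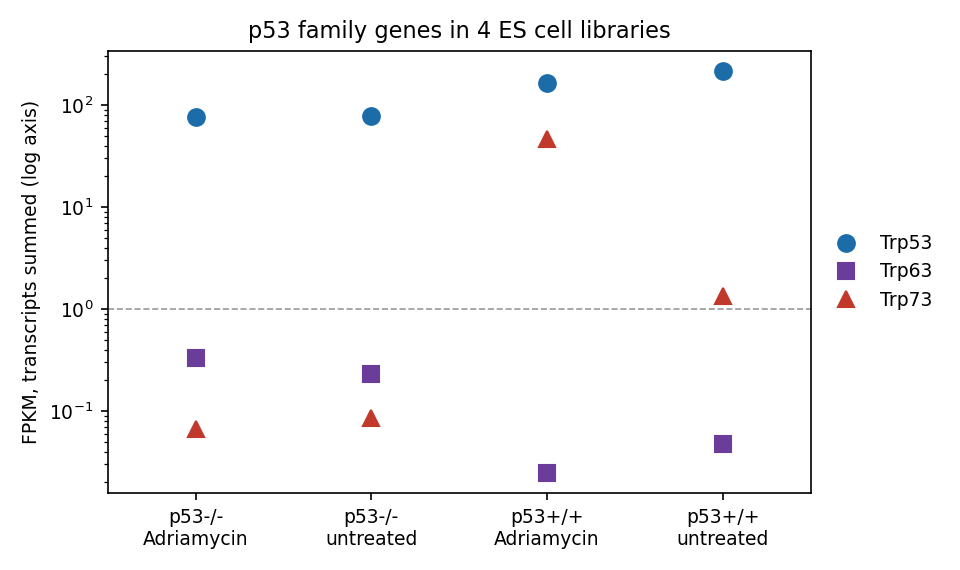
FPKM summed over transcripts (log axis) of Trp53, Trp63 and Trp73 in each of the 4 libraries; each point is 1 library and the dashed line marks 1 FPKM. Trp73 reached 46.01 FPKM in treated p53+/+ cells and stayed under 0.1 FPKM in both p53-/- libraries, while Trp63 stayed under 1 FPKM in all 4.

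Among the 13011 genes that reached 1 FPKM in at least 1 library, Trp53 ranked 891 from the top in treated and 889 in untreated p53-/- cells. In p53+/+ cells its rank was 263 in the treated and 221 in the untreated library. Trp73 ranked 1570 in treated p53+/+ cells, above 87.9% of these genes, and 10916 in untreated p53+/+ cells. In the p53-/- libraries it ranked 12918 with and 12852 without treatment.

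The targeted gene was measured first. Trp53 lies on the plus strand of chromosome 11, chr11:69393861-69405375 in mm9, and both of its transcripts share that span. They differ at the 3′ end: exon 11 of NM_001127233 begins 96 bases further upstream than exon 11 of NM_011640, at 69591254 and 69591350 in GRCm38. The reading frame changes there, so that NM_011640 encodes 390 residues and NM_001127233 encodes 381 with another C-terminus. In the mouse this second form is known as the alternatively spliced p53, which lacks the regulatory C-terminal end. Because the results on Trp53 turn on this junction, the end of exon 10 (30 bases, lower case) is shown with the coding part of exon 11 up to the stop codon (capitals), 5′ to 3′, from GENCODE M21 on GRCm38.
NM_011640: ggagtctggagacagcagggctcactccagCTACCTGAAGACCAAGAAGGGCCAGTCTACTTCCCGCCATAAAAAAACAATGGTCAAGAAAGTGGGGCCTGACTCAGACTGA
NM_001127233: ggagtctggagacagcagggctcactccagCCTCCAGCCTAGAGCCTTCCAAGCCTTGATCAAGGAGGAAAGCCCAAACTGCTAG

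The main transcript, NM_011640, was lower in the p53-/- libraries but far from absent. It stood at 43.9 FPKM (bounds 40.9 to 47.03) in treated and 43.4 FPKM (40.3 to 46.5) in untreated p53-/- cells, against 119 FPKM (114 to 124) in treated and 161 FPKM (156 to 167) in untreated p53+/+ cells. The p53-/- and the p53+/+ ranges do not overlap, and the p53-/- libraries overlap each other. Untreated p53-/- cells thus had 0.270 times the level of untreated p53+/+ cells, and treated p53-/- cells 0.370 times that of treated p53+/+ cells.

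The alternatively spliced transcript, NM_001127233, differed less between the genotypes. It stood at 32.6 FPKM (30.01 to 35.2) in treated and 35.2 FPKM (32.4 to 38.02) in untreated p53-/- cells, against 46.8 FPKM (43.6 to 50.07) in treated and 55.4 FPKM (52.1 to 59.0) in untreated p53+/+ cells. The ratio of p53-/- to p53+/+ cells was 0.636 without and 0.696 with treatment. These ranges do not overlap between genotypes either, but the gap is narrower than for the main transcript.

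The estimated mixture of both transcripts therefore differed between the p53-/- and the p53+/+ libraries. NM_001127233 made up 42.6% of the Trp53 FPKM in treated and 44.8% in untreated p53-/- cells, against 28.3% in treated and 25.7% in untreated p53+/+ cells. With 1 transcript at its lower bound and the other at its upper bound, the shares ran from 38.9% to 46.3% and from 41.1% to 48.6% in treated and untreated p53-/- cells. In treated and untreated p53+/+ cells they ran from 26.0% to 30.5% and from 23.7% to 27.4%, so the genotypes do not overlap. The share of the main transcript was 19.2 points lower in untreated p53-/- than in untreated p53+/+ cells, and 14.3 points lower with treatment.

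Changes of that size were common among genes with several transcripts. Between the untreated genotypes, 23.2% of 1260 genes with at least 10 FPKM in both libraries had a main transcript whose share moved by at least 10 points. A larger change than that of Trp53 was found in 109 of them, or 8.65%. Between the treated genotypes 29.0% of 1236 genes moved that far, and 220 of them (17.8%) moved further than Trp53. The shift with treatment was small, at 2.23 points up for the main transcript in p53-/- cells and 2.65 points down in p53+/+ cells, against medians of 3.28 and 3.86 points over all such genes, of which 19.2% and 22.0% moved by at least 10 points.

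**Figure D2:**
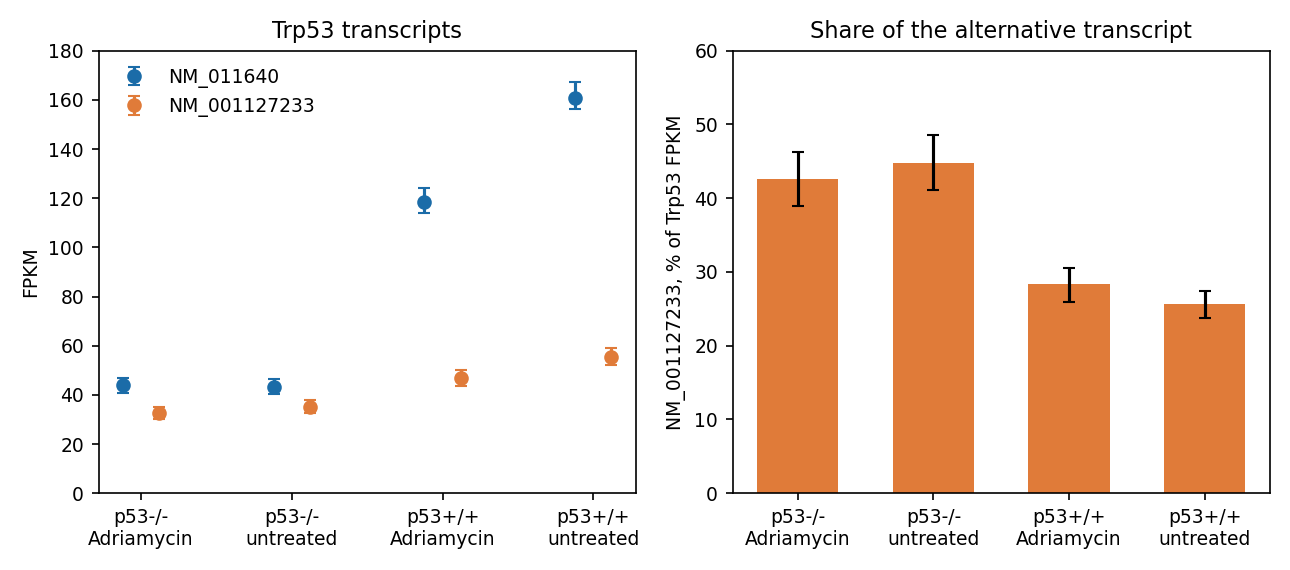
Left, FPKM of the Trp53 transcripts in the 4 libraries, with the 95% bounds of the deposited tables as bars. Right, the share of NM_001127233 in the Trp53 FPKM, with bars from each transcript at its opposite bound. The share is 42.6% and 44.8% in the p53-/- libraries, and 28.3% and 25.7% in the p53+/+ libraries.

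Summed over transcripts, Trp53 differed by -1.10 between p53-/- and p53+/+ cells with treatment, where 13.0% of all genes were lower by at least 1 and 6.72% higher. Without treatment it differed by -1.45, where 3.14% were lower and 3.5% higher. The difference with treatment was -0.04 in p53-/- and -0.38 in p53+/+ cells, beside medians over all genes of 0.07 and 0.05. In p53+/+ cells the level with Adriamycin was 76.6% of the untreated one, and the bounds of the main transcript do not overlap between these 2 libraries. The response of p53-/- cells minus that of p53+/+ cells was 0.34.

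The remaining signal in the p53-/- libraries cannot be assigned to a part of the gene from whole-transcript values. A processed pseudogene, Trp53-ps, on chromosome 17 is 94.9% identical to NM_011640 over 1170 aligned bases, so some reads may not be assigned with certainty. Fibroblast and trophoblast marker sums were higher and the primitive endoderm sum lower in the same libraries, as given above. What part these differences, the pseudogene and the deleted exons have in the Trp53 level and in the transcript shares was not tested.

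By the distance between the 4 centred log2(FPKM + 1) values, the genes most like Trp53 among 9363 candidates with at least 5 FPKM in a library were Zfp553 (distance 0.11), Camk1d (0.15), 1700030C10Rik (0.15), Rpl39l (0.16) and Tbx3 (0.17). Tbx3, a transcription factor of naive ES cells, stood at 14.5 FPKM in treated and 16.2 FPKM in untreated p53-/- cells, against 37.7 FPKM in treated and 48.6 FPKM in untreated p53+/+ cells. Over 4 libraries this likeness is a description only.

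Trp73 lies on the minus strand of chromosome 4, with a span of chr4:153430358-153514317 in mm9. Its upstream start, used by NM_011642, lies 43035 bases from the internal start shared by NM_001126330 and NM_001126331, and GENCODE M21 gives the same distance on GRCm38. NM_011642 has 3 exons of its own with 570 bases, and the internal start adds 1 exon of its own with 280 bases, before 11 exons that both forms share. NM_011642 encodes a TA form of 638 residues and NM_001126330 a ΔN form of 590 residues. NM_001126331 lacks 2 of the later exons, 288 bases in all. The coding bases that set the forms apart are shown with the start codon in capitals, 5′ to 3′, from GENCODE M21.
NM_001126330 (ΔN): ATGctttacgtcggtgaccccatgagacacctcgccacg
NM_011642 (TA): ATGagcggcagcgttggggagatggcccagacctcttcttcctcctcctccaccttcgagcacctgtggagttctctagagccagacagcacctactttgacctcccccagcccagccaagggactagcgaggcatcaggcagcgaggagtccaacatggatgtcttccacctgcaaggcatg

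The high Trp73 level in treated p53+/+ cells was almost wholly that of the ΔN transcript NM_001126330. It stood at 0.0671 FPKM (0.00959 to 0.125) in treated and 0.0848 FPKM (0.0212 to 0.148) in untreated p53-/- cells, against 45.5 FPKM (44.3 to 47.4) in treated and 1.33 FPKM (1.12 to 1.54) in untreated p53+/+ cells. The p53-/- libraries overlap each other, both p53+/+ libraries lie above them, and the treated p53+/+ library stands far above all others. Its level was 34.2 times that of untreated p53+/+ cells, or 28.8 to 42.5 times with both values at their opposite bounds.

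The TA transcript NM_011642 was detected in treated p53+/+ cells, at 0.522 FPKM (0.358 to 0.693). In treated p53-/-, untreated p53-/- and untreated p53+/+ cells it was estimated at under 0.0001 FPKM, with upper bounds of 0.0180, 0.0199 and 0.0150 FPKM. The TA transcript made up 1.14% of the Trp73 FPKM in treated p53+/+ cells (0.749% to 1.54% at opposite bounds), and NM_001126330 made up 98.9%. In untreated p53+/+ cells NM_001126330 held 99.97%, and the bounds there allow a TA share of up to 1.33%. The third transcript, NM_001126331, reached at most 0.000339 FPKM, with upper bounds between 0.0170 and 0.0226 FPKM. No share is given for the p53-/- libraries, where the gene summed to under 1 FPKM.

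**Figure D3:**
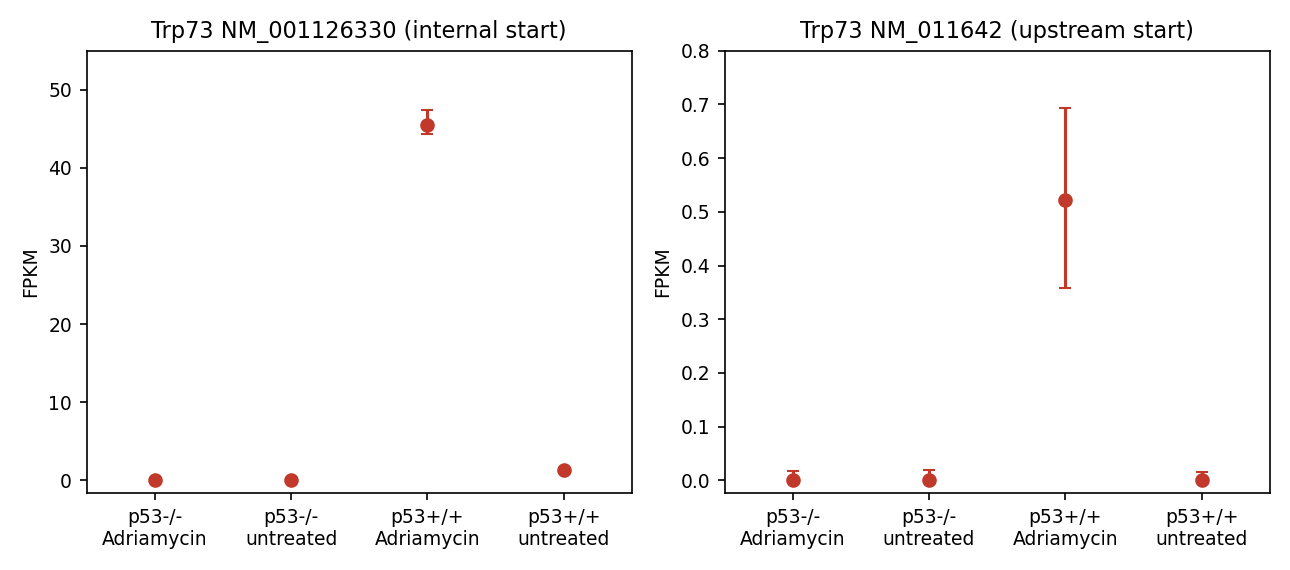
FPKM of the ΔN transcript NM_001126330 (left) and of the TA transcript NM_011642 (right) of Trp73 in the 4 libraries, with the 95% bounds of the deposited tables as bars; the axes differ in scale. Treated p53+/+ cells stand at 45.5 and 0.522 FPKM, and the TA transcript is near 0 in the other 3 libraries.

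Summed over transcripts, Trp73 differed by -0.02 with treatment in p53-/- cells and by 4.33 in p53+/+ cells. In the p53+/+ response, where 11.4% of all genes were higher by at least 1, no gene of the 13011 exceeded this difference on the log2(FPKM + 1) scale. That rank rests on the pseudocount, which understates low genes. Krt5, for example, stood at 13.1 FPKM in treated and 0.109 FPKM in untreated p53+/+ cells, a larger ratio than the 34.6 of Trp73. The ES cell markers had a median of -0.90 in the same comparison, and their part in the Trp73 difference was not tested. The response in p53-/- cells minus that in p53+/+ cells was -4.36, and 10.4% of all genes were lower and 3.29% higher by at least 1 in that comparison. In treated cells p53-/- minus p53+/+ was -5.46, with 1 gene further down. Without treatment it was -1.10, with 0.0848 FPKM in p53-/- against 1.33 FPKM in p53+/+ cells, and with a pseudocount of 5 FPKM this last difference was -0.32.

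The sequence before the internal start is shown because the transcripts that begin there carry the difference. It comprises the 250 bases upstream of that start on the minus strand, chr4:154097174-154097423 in GRCm38.p6 from RefSeq, written 5′ to 3′, and the start it ends at is that of NM_001126330 in GENCODE M21. Capitals mark the best match to the 20-base p53 consensus site, in which a 10-base repeat stands next to its copy.
Trp73 internal promoter: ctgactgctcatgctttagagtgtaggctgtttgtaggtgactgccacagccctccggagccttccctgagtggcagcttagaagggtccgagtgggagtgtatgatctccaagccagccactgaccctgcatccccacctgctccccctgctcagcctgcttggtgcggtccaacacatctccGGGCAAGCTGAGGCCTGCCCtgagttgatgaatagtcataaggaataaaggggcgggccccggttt

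Searched on both strands with no spacer, this window held a match with 2 mismatches, 1 in each repeat, that ends 46 bases before the start. Of 32851 promoter windows of the same length, 217 (0.661%) held a match with 2 or fewer mismatches. The other Trp73 window of the RefSeq table, whose start lies 333 bases inside the first exon of NM_011642, had 6 mismatches at best. Of all windows 97.4% had 6 or fewer. That window lies wholly after the start of NM_011642, so the sequence before the upstream start was not searched. The Trp53 window had 3 mismatches at best, a level reached by 5.32% of windows, and it overlaps a Wrap53 window on the opposite strand in which the best match is the same stretch. A match is a description of letters and not evidence of binding. These 3 windows cover 2 of the members, and Trp63 is named here only.

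The genes most like Trp73 by the same distance were Plk2 (0.59), Dcxr (0.68), Tap1 (0.80), Matn1 (0.80) and Rtkn (0.84). Plk2, a polo-like kinase and p53 target, stood at 2.79 FPKM in treated and 1.91 FPKM in untreated p53-/- cells, against 110 FPKM in treated and 8.05 FPKM in untreated p53+/+ cells. Matn1, which encodes a cartilage matrix protein, stood at 0.0242 FPKM in treated and 0.0266 FPKM in untreated p53-/- cells, against 22.7 FPKM in treated and 0.443 FPKM in untreated p53+/+ cells. All 5 share with Trp73 a single high library, that of treated p53+/+ cells. They were picked by that pattern, so this too is a description only.

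Trp63 lies on the plus strand of chromosome 16, chr16:25683851-25892174 in mm9, and its internal start lies 118151 bases after its upstream start. Of its 8 transcripts 3 are TA and 5 are ΔN. All 12 values of the TA transcripts were under 0.0001 FPKM, with upper bounds between 0.0141 and 0.0441 FPKM, so TA transcripts were not detectable at this depth. The signal above that level was assigned to ΔN transcripts.

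In treated p53-/- cells NM_001127265 stood at 0.231 FPKM (0.0576 to 0.403) and NM_001127264 at 0.0972 FPKM (0.0293 to 0.166). In untreated p53-/- cells NM_001127263 stood at 0.200 FPKM (0.0314 to 0.376) and NM_001127262 at 0.0287 FPKM (0 to 0.0659). In treated p53+/+ cells NM_001127265 stood at 0.0197 FPKM and NM_001127263 at 0.00494 FPKM, and in untreated p53+/+ cells at 0.0436 and 0.00417 FPKM, with lower bounds of 0. NM_001127263 and NM_001127265 differ in length by 12 bases, and which of them held the signal was not the same in both p53-/- libraries.

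The whole gene rested on 3.48 kilobases of aligned sequence in treated and 1.99 in untreated p53-/- cells, against 0.240 in treated and 0.483 in untreated p53+/+ cells. Trp73 in treated p53+/+ cells had 1119 kilobases. On the log2(FPKM + 1) scale Trp63 differed by 0.37 between treated p53-/- and p53+/+ cells and by 0.23 between the untreated ones. With a pseudocount of 0.1 FPKM these differences were 1.78 and 1.15. The response was 0.11 in p53-/- and -0.03 in p53+/+ cells. The fibroblast and trophoblast marker sums were higher and the primitive endoderm sum lower in the same p53-/- libraries, and their part in the Trp63 level was not tested.

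The neighbours of each member were measured as well. The nearest gene on one side of Trp73 is Wrap73, which encodes a WD repeat protein of the centrosome and begins 2163 bases away. The nearest gene on one side of Trp53 is Wrap53, whose WD repeat protein carries telomerase RNA to Cajal bodies, 1034 bases away. No annotated neighbour overlapped a member in mm9, and whether the libraries keep the strand was not given in the sources used here.

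Wrap73 stood at 10.9 FPKM in treated and 11.3 FPKM in untreated p53-/- cells, against 54.0 FPKM in treated and 14.6 FPKM in untreated p53+/+ cells, so the treated p53+/+ library stood apart as it did for Trp73. Wrap53 stood at 20.2 FPKM in treated and 18.9 FPKM in untreated p53-/- cells, against 47.06 FPKM in treated and 16.6 FPKM in untreated p53+/+ cells. Trp53 itself differed by -0.38 with treatment in p53+/+ cells, which is within 1 and so not called lower. Megf6, which lies beyond Wrap73 on the same side, stood at 1.01 FPKM in treated and 0.887 FPKM in untreated p53-/- cells, against 5.82 FPKM in treated and 0.789 FPKM in untreated p53+/+ cells.

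Of the 5 Trp73 neighbours past the filter of 1 FPKM, 0 were past 1 in the p53-/- response, where 0.377% of all genes were higher and 0.461% lower, and 2 were higher by at least 1 in the p53+/+ response, where 11.4% of all genes were. Tprgl lies between Wrap73 and Megf6 and stood at 52.2 FPKM in treated and 44.1 FPKM in untreated p53-/- cells, against 35.5 FPKM in treated and 43.6 FPKM in untreated p53+/+ cells. On the other side of Trp73, Lrrc47 stayed between 48.4 and 50.5 FPKM in all 4 libraries. Of the 5 Trp53 neighbours past the filter, Wrap53 was the 1 counted as higher in the p53+/+ response, at 1.45. Around Trp63 only Lpp, a LIM domain protein of focal adhesions, passed the filter, and it reached at most 1.76 FPKM.

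**Figure D4:**
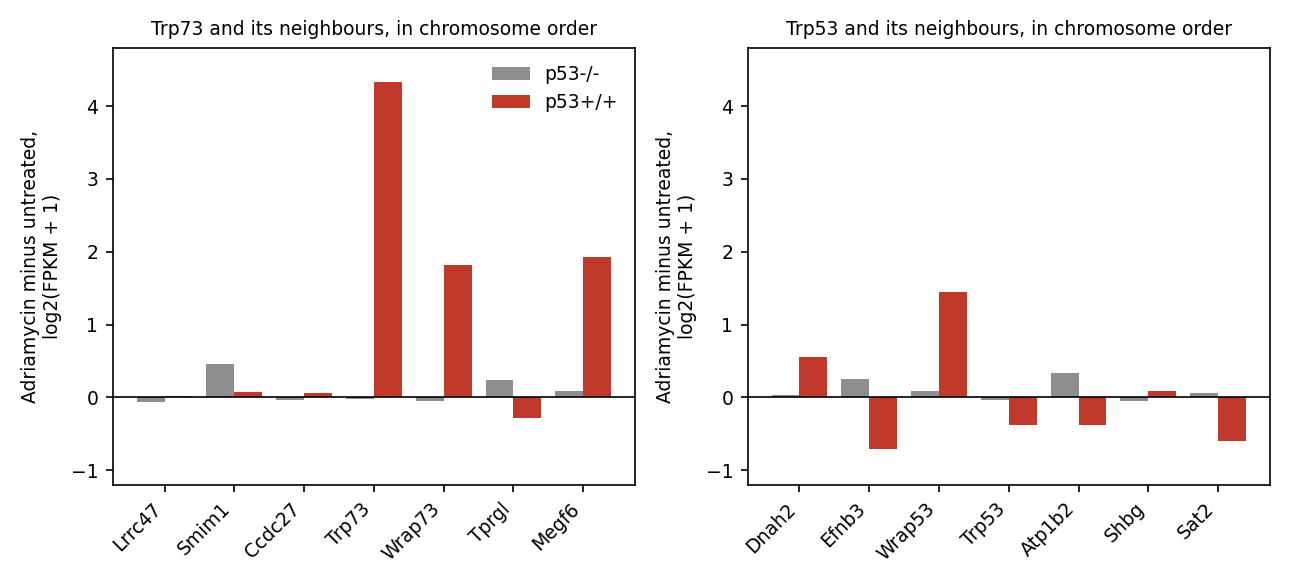
Difference with Adriamycin on the log2(FPKM + 1) scale for Trp73 (left) and Trp53 (right) and the 3 genes on each side, in chromosome order, in p53-/- and p53+/+ cells; each bar is 1 treated minus 1 untreated library. Trp73, Wrap73, Megf6 and Wrap53 pass 1 in p53+/+ cells, where 11.4% of all genes were higher. No gene shown passes 1 in p53-/- cells, where 0.377% of all genes were higher and 0.461% lower.

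Genes that act on or below the family were taken from 5 lists. The lists were chosen with earlier results of these data known, so their counts are a description and not independent support. Of 11 inhibitors of p53 family proteins, 0 were past 1 in the p53-/- response, while in the p53+/+ response 4 were higher and 0 lower, where 11.4% of all genes were higher and 2.78% lower. The list median was 0.03 in p53-/- and 0.64 in p53+/+ cells. Mdm2, the ubiquitin ligase that degrades p53, stood at 19.9 FPKM in treated and 17.7 FPKM in untreated p53-/- cells, against 257 FPKM in treated and 32.6 FPKM in untreated p53+/+ cells. Ppp1r13l, which encodes the p53 inhibitor iASPP, stood at 9.97 FPKM in treated and 8.31 FPKM in untreated p53-/- cells, against 57.2 FPKM in treated and 6.76 FPKM in untreated p53+/+ cells. Ppm1d, a phosphatase that acts on p53, differed by 0.11 in p53-/- and 1.75 in p53+/+ cells, and Ccng1, a cyclin that acts with Mdm2, by 0.49 and 1.87. The ligase Itch, which marks p63 and p73 for degradation, differed by 0.01 in p53-/- and -0.43 in p53+/+ cells.

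Of 17 kinases and positive cofactors, 0 were past 1 in the p53-/- response, where 0.377% of all genes were higher and 0.461% lower. The list median was -0.03 in p53-/- and -0.19 in p53+/+ cells. In the p53+/+ response 2 were higher and 0 lower. That count is close to the 11.4% of all genes that were higher, so nothing is read from it about the list. The 2 were Trp53inp1, a stress protein that acts with p53 and p73, and Ppp1r13b, which encodes the cofactor ASPP1. Trp53inp1 stood at 3.62 FPKM in treated and 2.01 FPKM in untreated p53-/- cells, against 119 FPKM in treated and 27.5 FPKM in untreated p53+/+ cells. Ppp1r13b stood at 6.15 FPKM in treated and 4.46 FPKM in untreated p53-/- cells, against 12.4 FPKM in treated and 4.84 FPKM in untreated p53+/+ cells. With a pseudocount of 5 FPKM only 1 of them passed 1. The damage kinases Atm and Atr differed by 0.14 and 0.01 in the p53+/+ response.

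Of 21 targets that the family shares, 0 were past 1 in the p53-/- response, and in p53+/+ cells 16 were higher and 0 lower, with medians of 0.20 and 1.69. Over all genes 0.377% were higher and 0.461% lower in p53-/- cells, and 11.4% were higher and 2.78% lower in p53+/+ cells. Mdm2 and Ccng1 stand on this list as well as among the inhibitors, and Trp53inp1 as well as among the cofactors. Perp, a junction protein that is a target of p53 and p63, stood at 5.68 FPKM in treated and 4.49 FPKM in untreated p53-/- cells, against 82.7 FPKM in treated and 9.06 FPKM in untreated p53+/+ cells. The death receptor gene Fas stood at 0.238 FPKM in treated and 0.0744 FPKM in untreated p53-/- cells, against 11.2 FPKM in treated and 0.253 FPKM in untreated p53+/+ cells. It passed the filter only through the treated p53+/+ library, so it had to be high there.

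Of 18 epithelial genes linked to p63, 13 passed the filter. Among these 0 were past 1 in the p53-/- response, beside 0.377% of all genes higher and 0.461% lower. In p53+/+ cells 7 were higher, 0 lower and 6 within 1, beside 11.4% of all genes higher and 2.78% lower. The medians were 0.02 in p53-/- and 1.31 in p53+/+ cells. The basal keratin Krt5 stood at 0.154 FPKM in treated and 0.193 FPKM in untreated p53-/- cells, against 13.1 FPKM in treated and 0.109 FPKM in untreated p53+/+ cells. Krt14, also on the list, reached at most 0.885 FPKM, in treated p53+/+ cells, and did not pass the filter. Krt15 was listed at 0 in p53-/- cells with and without treatment, against 4.83 FPKM in treated and 0.0477 FPKM in untreated p53+/+ cells. The Notch ligand gene Jag2 stood at 16.4 FPKM in treated and 18.1 FPKM in untreated p53-/- cells, against 67.2 FPKM in treated and 10.1 FPKM in untreated p53+/+ cells. Trp63 itself was at 0.0247 FPKM in that treated p53+/+ library. Perp and Sfn stand on this list and on that of shared targets, and Krt5 and Krt15, which passed the filter only through the treated p53+/+ library, had to be high there. The 4 basal epithelial markers, all of which stand on this list, summed to 2.67 FPKM in treated and 2.35 FPKM in untreated p53-/- cells, against 38.0 FPKM in treated and 3.87 FPKM in untreated p53+/+ cells, and what part a change of cell type has in these values was not tested.

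Of 9 genes linked to p73 in multiciliated cells and Cajal-Retzius neurons, 8 had a row and 4 passed the filter, of which 1 was higher in the p53+/+ response, where 11.4% of all genes were. This was Foxj1, a transcription factor of motile cilia, at 0.129 FPKM in treated and 0.101 FPKM in untreated p53-/- cells, against 8.83 FPKM in treated and 0.641 FPKM in untreated p53+/+ cells. Foxj1 too passed the filter only through the treated p53+/+ library. Rfx2, Ccno and Myb differed by -0.62, 0.09 and -0.66 in p53+/+ cells. Mcidas and Gmnc, regulators at the start of the multiciliated programme, did not pass the filter.

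**Figure D5:**
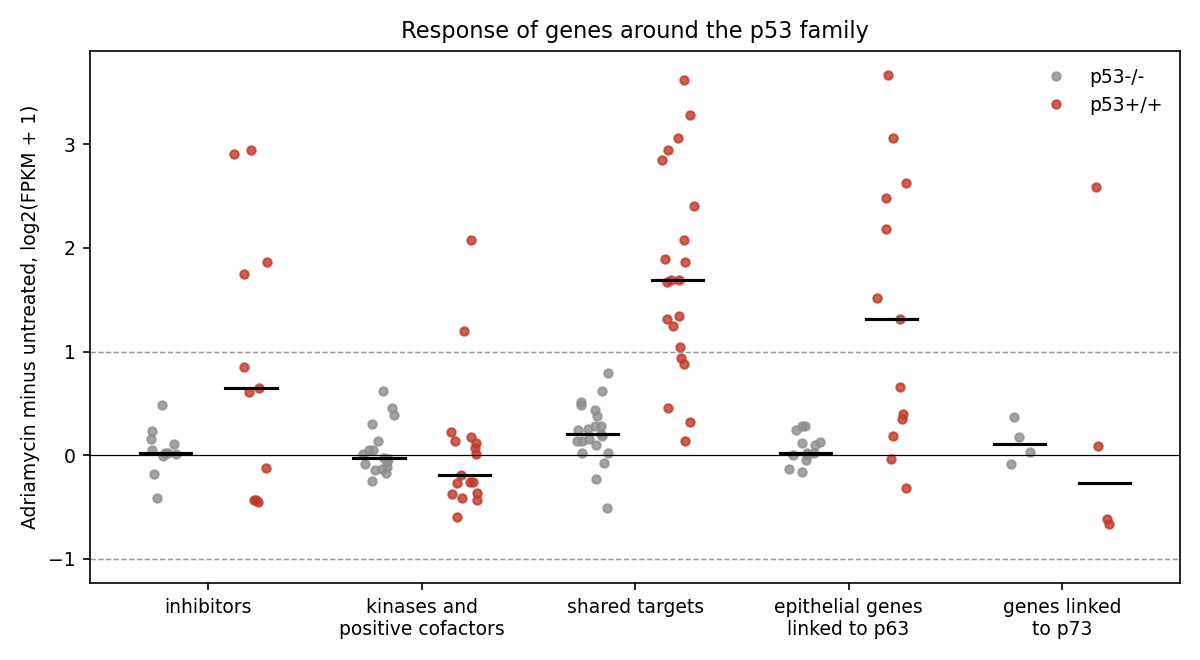
Difference with Adriamycin on the log2(FPKM + 1) scale for members of the 5 lists past the filter, in p53-/- and p53+/+ cells; each point is 1 gene, black bars are medians and dashed lines mark 1 and -1. No listed gene passes 1 in p53-/- cells, where 0.377% of all genes were higher and 0.461% lower. In p53+/+ cells 16 of 21 shared targets pass 1, where 11.4% of all genes were higher.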

How the data were processed

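The authors deposited 1 Cufflinks transcript table of FPKM per library, with bounds, coverage, length and status, per the file headers. Coverage is the deposited read depth per base, a signal not scaled to library size. Build mm9, Cufflinks, TopHat, TopHat2 2.0.5 and CASAVA 1.8.1 appear, without role or order, in the submitters' processing notes. An exome enrichment kit appears in the labels' protocols. The annotation and the Cufflinks version are not given in the sources used here. No count model was used on FPKM.

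Of 30769 rows, 30227 were named through RefSeq (GRCm38.p6) and 180 through GENCODE M21, and 362 were not. Transcripts were summed per gene, without short RNA genes (826 rows), because read assignment can move between transcripts. That left 22394 genes, of which 13011 had at least 1 FPKM in at least 1 library. Positions of genes are mm9, counted from 1, and sequences are GRCm38. No coordinates were converted.

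In 5 comparisons, treated cells were set against untreated ones within each genotype, p53-/- against p53+/+ cells with and without Adriamycin, and the response of p53-/- cells against that of p53+/+ cells. Members, lists and thresholds were chosen with earlier results of these data known. Named genes were all member rows, overlapping genes and 3 neighbours on each side, up to 4 members of each list with the largest p53+/+ response, and the 5 genes nearest in pattern. Itch, Atm, Atr, Mcidas, Gmnc, Mdm4, Sfn and Sesn2, and the cell type markers, fall outside that rule and were chosen after their values were seen. Alternatives were pseudocounts of 0.1 and 5 FPKM, 3 other scalings, no filter or 5 FPKM, the top transcript in place of the sum, and other ways to form shares. The calculations were tested on simulated data. Python 3.11.15, pandas 2.3.3, numpy 2.4.6, Biopython 1.88, matplotlib 3.10.9 and blastn 2.17.0 were used.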

Additional observations from a re-analysis of the deposited data

Results flagged for a closer look

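Among the members, their neighbours and the genes of the pathway and marker lists that passed the filter, 6 had responses to Adriamycin on opposite sides of 0 in the single p53-/- pair and the single p53+/+ pair of libraries, with at least 1 of them past 1. The p53-/- response minus the p53+/+ response was -4.36 for Trp73, -1.87 for Wrap73, -3.72 for Krt5 and -2.76 for Jag2. It was -1.76 for Sesn2, a stress-induced p53 target, and -2.17 for Col1a1, a fibroblast collagen gene. The p53-/- responses themselves were -0.02 for Trp73, -0.05 for Wrap73, -0.05 for Krt5, -0.14 for Jag2, -0.07 for Sesn2 and -0.36 for Col1a1. All of these p53-/- responses were within 1. The bounds of the ΔN Trp73 transcript overlap between the p53-/- libraries. Krt5 stood near the floor there, at 0.154 FPKM in treated and 0.193 FPKM in untreated cells. The opposite signs are therefore not read as opposite responses. With 1 library per group these differences were not tested.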

How the results depend on the processing

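No paired analysis was possible because each group has 1 library, and for the same reason no library could be left out. No called difference of Trp53 or Trp73 changed sign under any alternative. All 18 alternative shares lay within their bounds, but nothing is read from this. For the 6 with the transcript at its lower and the 6 at its upper bound, it was fixed by how the bounds were formed. The other 6, from summed aligned bases, differ only in weighting by transcript length. With a pseudocount of 0.1 FPKM, Trp73 stood at 5.01 in the p53+/+ response, -8.11 and -2.95 for p53-/- minus p53+/+ with and without treatment, and -5.15 for the response difference, while Trp63 stood at 1.78 and 1.15 between the genotypes. With 5 FPKM, Trp73 stood at 3.01, -3.33, -0.32 and -3.02 in the same order. The Trp53 response in p53+/+ cells was -0.17 after quantile normalization. Taking the top transcript, Trp53 stood at -1.41 with and -1.86 without treatment between the genotypes.

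Counts over all genes moved most with the pseudocount. At 0.1 FPKM the p53+/+ response had 611 lower genes, the p53-/- response 188 higher and 96 lower, the untreated genotypes 853 higher and 886 lower, and the response difference 758 higher. At 5 FPKM the counts higher and lower were 627 and 153, 20 and 31, 135 and 122, and 159 and 612 in the same comparisons, and 335 and 795 between the treated genotypes. Quantile normalization gave 588 lower genes in the p53+/+ response. The top transcript gave 75 higher and 91 lower in the p53-/- response. A filter of 5 FPKM gave 26 higher there and 288 higher between the untreated genotypes. Of the lists, 1 shared target was higher in p53-/- and 1 gene linked to p73 lower in p53+/+ cells at 0.1 FPKM, and 1 cofactor was higher in p53+/+ cells at 5 FPKM.

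Depth limits Trp63 in every library and Trp73 in p53-/- cells, where under 4 kilobases of aligned sequence stand behind each value.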

Other observations

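Usp10, which encodes a deubiquitinase that stabilises p53, was the member of the cofactor list that stood higher by at least 1 in treated p53-/- cells. It stood at 98.3 FPKM in treated and 106 FPKM in untreated p53-/- cells, against 40.2 FPKM in treated and 61.2 FPKM in untreated p53+/+ cells. Its difference between the treated genotypes was 1.27, where 6.72% of all genes were higher by at least 1, and between the untreated ones 0.79. Mdm4, a relative of Mdm2 that binds p53, was lower by 2.33 in treated and by 1.31 in untreated p53-/- cells than in p53+/+ cells. It was looked up after its values were seen. Over all genes 13.0% were lower by at least 1 between the treated and 3.14% between the untreated genotypes. Of the 11 inhibitors, 7 were lower in treated and 2 in untreated p53-/- cells. With treatment Ccng1 (-3.86), Mdm2 (-3.63) and Ppp1r13l (-2.41) stood further down than Mdm4.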
